A study of Mus musculus with 8 samples.

Results

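The genes followed here, across 8 mouse tumor libraries, take part in T cell recruitment: the chemokines Cxcl9, Cxcl10 and Cxcl11, their receptor Cxcr3, and a second pair made of the chemokine Cxcl16 and its receptor Cxcr6. They were found by gene symbol among the 34586 symbols of the deposited table, and each of the 6 has 1 row and a value in all libraries. The Cxcr3 ligands were chosen by their lower FPKM in tamoxifen than in vehicle tumors in these same libraries. The difference between the groups is therefore given below as a description, without a test, for all 6.

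The tumors grew in the cecum and model GIST, the stromal sarcoma of the gut that resembles the Cajal cells, which pace its contractions. There were 4 tamoxifen libraries and 4 vehicle libraries, and the comparison addresses how the tumor transcriptome differs after ablation of Etv1, an ETS transcription factor of this lineage. All tumors, in both groups, came from C57BL/6 mice that carried Kit V558Delta/+ together with Etv1 flox/flox and, for the inducible Cre, Rosa26 CreERT2/CreERT2, so the vehicle tumors carry the same mutant Kit, floxed Etv1 and inducible Cre. The Cre is expressed from the Rosa26 locus, which is active in most cell types, so its expression is not restricted to tumor cells by design; where recombination took place was not measured. Age, sex, dose and time after treatment do not appear in the labels, and no Cre-negative tamoxifen group was analysed. No label says whether each library is a different mouse, so the p-values cover only the spread among these libraries, which may be technical.

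Cxcl9, Cxcl10 and Cxcl11 are small secreted chemokines that cells make in response to interferon gamma, and Cxcl10 and Cxcl11 also in response to type I interferon. They bind Cxcr3 on activated T cells, above all type 1 helper and cytotoxic T cells, and on NK cells, and draw them into inflamed tissue and tumors. Cxcl16 is made as a membrane protein and can be shed as a soluble chemokine. Its receptor Cxcr6 marks effector and tissue-resident T cells, NKT cells and some innate lymphoid cells. Bulk tumor RNA was sequenced, so fewer cells of a type and less RNA per cell cannot be told apart.

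The bases before the start sites of Cxcl9 and Cxcl10 are shown because these 2 neighbouring chemokine genes had the highest levels of the 3 Cxcr3 ligands and differ in their promoter letters. RefSeq promoter entries (GRCm38.p6) were found for 4 of the 6 genes, Cxcl9, Cxcl10, Cxcr3 and Cxcr6. Each sequence below is the 250 bases before the start site, on the minus strand, at chr5:92328080-92328329 for Cxcl9 and chr5:92348890-92349139 for Cxcl10. Capitals mark every match, on either strand, to any of 6 motifs that were searched.
Cxcl9: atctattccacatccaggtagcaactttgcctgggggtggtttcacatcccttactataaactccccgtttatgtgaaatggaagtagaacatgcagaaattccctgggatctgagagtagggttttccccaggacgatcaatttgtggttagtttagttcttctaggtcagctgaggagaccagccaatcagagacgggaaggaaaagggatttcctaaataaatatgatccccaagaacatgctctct
Cxcl10: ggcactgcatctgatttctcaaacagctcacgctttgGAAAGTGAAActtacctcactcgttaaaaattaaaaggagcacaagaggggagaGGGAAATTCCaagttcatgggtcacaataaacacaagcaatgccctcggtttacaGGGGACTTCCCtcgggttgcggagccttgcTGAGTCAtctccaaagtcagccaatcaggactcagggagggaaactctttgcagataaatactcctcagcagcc

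The motifs were the interferon-stimulated response element (ISRE, 2 copies of GAAA with any 2 bases between), the interferon gamma activated site (GAS, TTCNNNGAA), the NF-kB consensus, the AP-1 site (TGANTCA), a T-box site (GGTGTGA) and an ETS site (CCGGAAG). In Cxcl10 the ISRE letters lay at bases -213 to -204 from the start site. NF-kB letters lay at -159 to -150 and, as 2 matches overlapping by all but 1 base, at -104 to -94. AP-1 letters lay at -74 to -68. Of 32851 RefSeq promoter windows of the same length, 2.98% hold the ISRE letters, 7.25% the NF-kB consensus and 6.75% the AP-1 site. The windows of Cxcl9, Cxcr3 and Cxcr6 hold none of the 6 motifs, which says only that these letters are not in these 250 bases. The GAS, T-box and ETS letters, in 7.02%, 3.33% and 6.91% of all windows, were in none of the 4.

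Values are gene-level FPKM, that is, fragments mapped to a gene scaled for transcript length and for the fragments of the library. The files used hold FPKM and no counts, so the depth is unknown, and 14176 to 14841 symbols reached 1 FPKM per library. Etv1 averaged 25.8 ± 8.60 FPKM in tamoxifen tumors and 41.2 ± 7.03 FPKM in vehicle tumors (SD, n = 4 each; limma adjusted p = 0.13), and tamoxifen replicate 1, at 34.9 FPKM, lay within the vehicle range of 34.6 to 51.1. The Etv1 value is for the whole gene, so exons outside the floxed part can count toward it. Over the whole table, 819 of 15023 tested genes passed an adjusted p of 0.05 in limma, or 5.45%, with 461 (3.07%) lower and 358 (2.38%) higher in tamoxifen tumors.

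The 3 ligands of Cxcr3 were each lower in every tamoxifen tumor than in any vehicle tumor. Cxcl9 had 47.1, 36.5, 45.0 and 35.9 FPKM in tamoxifen replicates 1 to 4, against 473, 631, 358 and 537 FPKM in vehicle replicates 1 to 4. The groups were far apart, with the lowest vehicle value 7.60 times the highest tamoxifen value. The mean was 41.2 ± 5.77 FPKM in tamoxifen tumors and 499.7 ± 115 FPKM in vehicle tumors (SD, n = 4 each), a log2 fold change of FPKM + 1 of -3.55. Within each group Cxcl9 varied little, 1.31-fold among tamoxifen tumors and 1.76-fold among vehicle tumors. It was the 143rd most abundant of the tested genes in vehicle tumors by mean FPKM and ranked 2754 in tamoxifen tumors. The deposited table also gives each value a confidence interval, whose level is not given in the sources used here. For Cxcl9 the highest upper bound among tamoxifen libraries was 69.5 FPKM and the lowest lower bound among vehicle libraries 151 FPKM, so these intervals did not meet.

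Cxcl10 had 66.8, 35.1, 70.7 and 78.9 FPKM in tamoxifen replicates 1 to 4, against 194, 667, 263 and 1068 FPKM in vehicle replicates 1 to 4. The groups did not overlap, but the vehicle tumors were spread 5.50-fold, with replicates 4 and 2 high and replicates 1 and 3 low. The means were 62.9 ± 19.2 FPKM in tamoxifen tumors and 548 ± 404 FPKM in vehicle tumors (log2 fold change -2.84). The deposited intervals of Cxcl10 met, with an upper bound of up to 139 FPKM in tamoxifen libraries and a lower bound down to 57.1 FPKM in vehicle libraries.

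Cxcl11 was the least abundant ligand, with 4.76, 2.35, 3.33 and 4.04 FPKM in tamoxifen replicates 1 to 4, against 10.01, 34.4, 14.1 and 36.2 FPKM in vehicle replicates 1 to 4. Its vehicle values ranked in the same order as those of Cxcl10, replicate 4 highest, then 2, 3 and 1. The means were 3.62 ± 1.03 FPKM in tamoxifen tumors and 23.7 ± 13.6 FPKM in vehicle tumors (log2 fold change -2.25). Its level is uncertain in single libraries, because the deposited lower bound was 0 in 6 of the 8 libraries. GENCODE (release M21) classes mouse Cxcl11 as a polymorphic pseudogene, and the C57BL/6 strain is known to carry a frameshift that prevents the functional protein, so its RNA is measured here without a matching protein being implied.

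**Figure D1:**
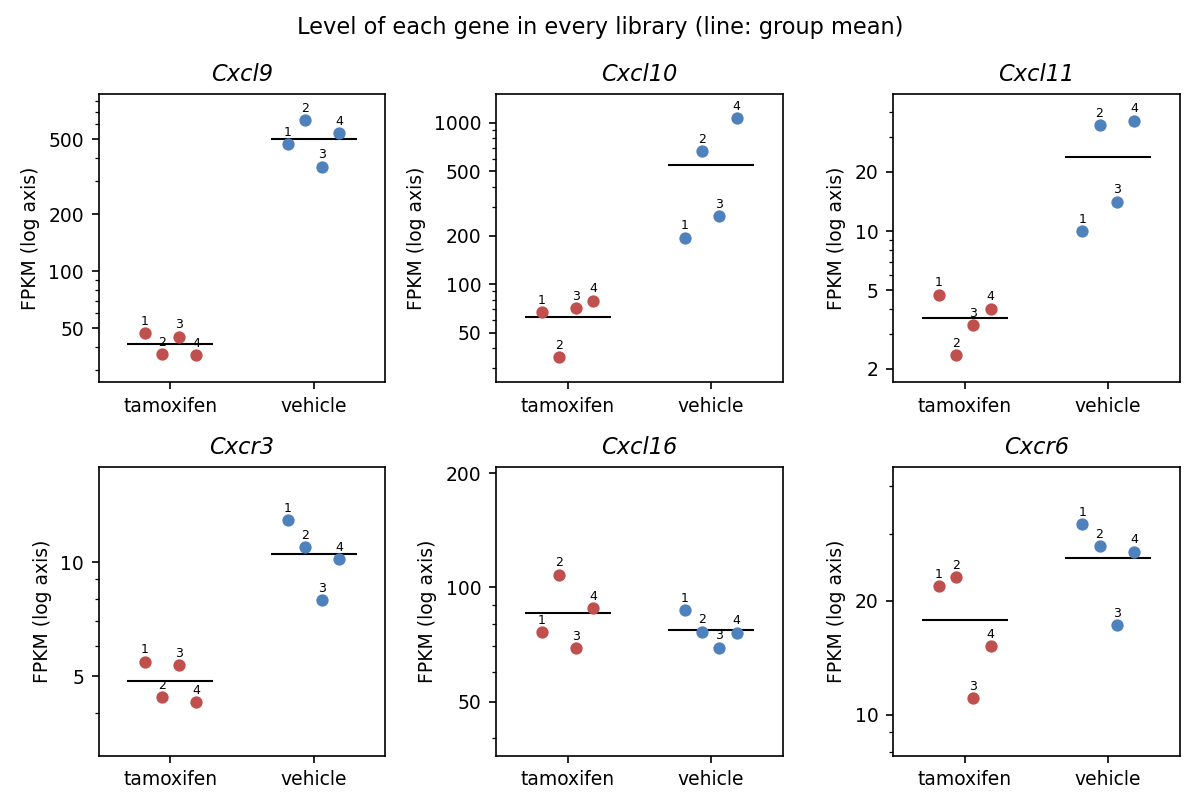
FPKM (log axis) of the 6 genes in each library, tamoxifen left and vehicle right, with replicate numbers above the points and a line at each group mean. Cxcl9, Cxcl10, Cxcl11 and Cxcr3 do not overlap between groups (Cxcl9 35.9 to 47.1 FPKM in tamoxifen and 358 to 631 FPKM in vehicle tumors), whereas Cxcl16 and Cxcr6 do.

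Cxcl10 and Cxcl11 share a single locus in the deposited table (mm9 chromosome 5, 92760853 to 92843654), together with Art3, which encodes an ADP-ribosyltransferase family protein, and with Gm2673, which had 0.00217 FPKM on average. Reads in overlapping parts of these genes could be assigned to any of them, so the 2 chemokines are less certain than Cxcl9, whose own locus (chromosome 5, 92750357 to 92757105) overlaps no other row. Art3 had 62.9, 41.7, 41.0 and 28.8 FPKM in tamoxifen tumors, against 36.3, 34.1, 25.04 and 22.0 FPKM in vehicle tumors (limma adjusted p = 0.257), so its groups overlapped and its mean was higher in tamoxifen tumors.

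Added up, the 3 ligands came to 74.0 to 119 FPKM in tamoxifen tumors and 635 to 1641 FPKM in vehicle tumors. Tamoxifen replicates 1, 3 and 4 were nearly equal in this sum, at 119, 119 and 119 FPKM, and only replicate 2 was lower. The mix of ligands differed from tumor to tumor in both groups. Cxcl9 made up 39.7%, 49.4%, 37.8% and 30.2% of the sum in tamoxifen replicates 1 to 4, against 69.8%, 47.4%, 56.4% and 32.7% in vehicle replicates 1 to 4, so the shares overlapped. The vehicle tumors ranged from one dominated by Cxcl9 (replicate 1) to one dominated by Cxcl10 (replicate 4, where Cxcl10 made up 65.1%). Cxcl11 was a small share throughout, 2.80% to 4.01% in tamoxifen tumors and 1.48% to 2.58% in vehicle tumors.

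**Figure D2:**
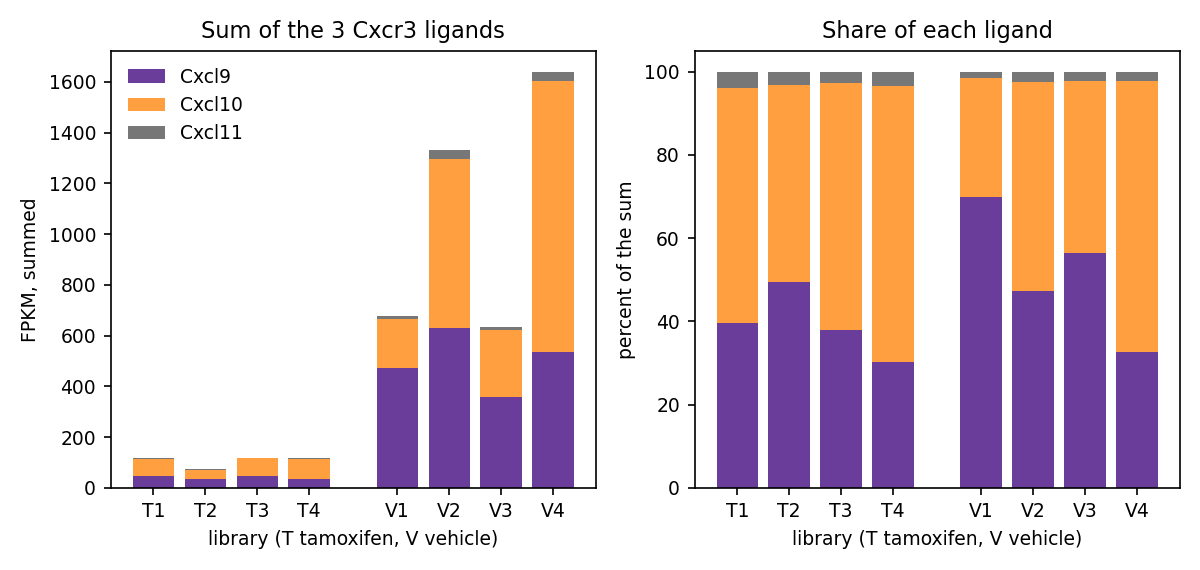
Left, FPKM of Cxcl9, Cxcl10 and Cxcl11 stacked for each library (T tamoxifen, V vehicle, replicates 1 to 4); right, the same values as percent of their sum. The sums are 74.0 to 119 FPKM in tamoxifen tumors and 635 to 1641 FPKM in vehicle tumors, and the share of Cxcl9 is 30.2% to 49.4% in tamoxifen tumors and 32.7% to 69.8% in vehicle tumors.

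Cxcr3, the receptor of these chemokines, had 5.47, 4.41, 5.34 and 4.27 FPKM in tamoxifen replicates 1 to 4, against 12.9, 11.0, 7.92 and 10.2 FPKM in vehicle replicates 1 to 4. The groups did not overlap, although the gap was small: the lowest vehicle value was 1.45 times the highest tamoxifen value. Its deposited intervals met, with upper bounds up to 8.92 FPKM in tamoxifen libraries and lower bounds down to 3.29 FPKM in vehicle libraries. The means were 4.87 ± 0.620 FPKM in tamoxifen tumors and 10.5 ± 2.05 FPKM in vehicle tumors (SD, n = 4 each; log2 fold change -0.96). No other row overlaps its locus (chromosome X, 98926874 to 98929608). Counted with the ligands, 4 of the 6 genes were lower in every tamoxifen tumor than in any vehicle tumor, as were 7.69% of all tested genes, while 7.36% were higher without overlap. Nothing is read from that count, since the ligands were picked for it.

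Set against Cd3e, which encodes a CD3 subunit, Cxcr3 gave ratios that overlapped between the groups. The ratio of Cxcr3 to Cd3e FPKM was 0.675, 0.488, 0.632 and 0.537 in tamoxifen replicates 1 to 4, against 0.558, 0.636, 0.465 and 0.490 in vehicle replicates 1 to 4. The means were 0.583 ± 0.0854 in tamoxifen tumors and 0.537 ± 0.0767 in vehicle tumors (SD, n = 4 each). Against the mean of 12 T cell markers, the log2 level of Cxcr3 was -0.70 ± 0.15 in tamoxifen tumors and -0.62 ± 0.12 in vehicle tumors. For Cxcl9, which was chosen by its difference between the groups, the same measure follows from that choice and is given as a description. Its log2 level stood 2.14 ± 0.19 above their mean in tamoxifen tumors and 4.81 ± 0.29 above it in vehicle tumors.

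**Figure D3:**
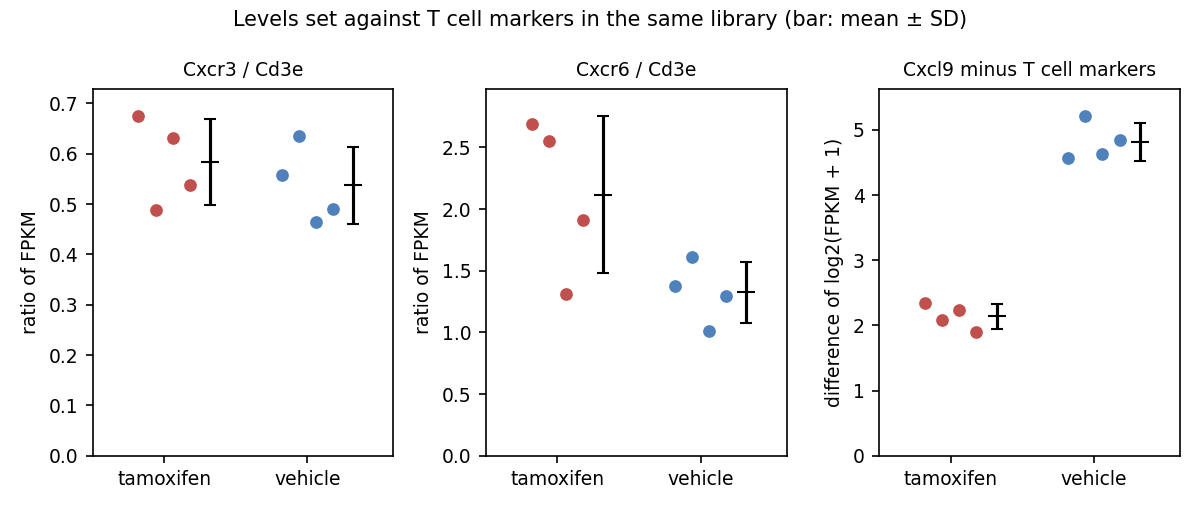
Ratio of Cxcr3 and of Cxcr6 to Cd3e FPKM, and the log2(FPKM + 1) of Cxcl9 minus the mean of 12 T cell markers, in each library, tamoxifen left and vehicle right; bars give mean ± SD (n = 4 each). The Cxcr3 ratio averages 0.583 in tamoxifen and 0.537 in vehicle tumors, and Cxcl9, chosen by its difference, stands 2.14 log2 units above the markers in tamoxifen and 4.81 in vehicle tumors.

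The values of the second chemokine and receptor pair overlapped between the groups. Cxcl16 had 76.3, 108, 69.2 and 88.1 FPKM in tamoxifen replicates 1 to 4, against 87.1, 76.4, 69.4 and 76.0 FPKM in vehicle replicates 1 to 4. These values overlapped almost fully, with means of 85.4 ± 17.0 FPKM in tamoxifen tumors and 77.2 ± 7.33 FPKM in vehicle tumors (log2 fold change 0.13). In tamoxifen tumors Cxcl16 was more abundant than Cxcl9, by a ratio of 1.54 to 2.96 per library, and in vehicle tumors less abundant, by a ratio of 0.121 to 0.194. Its locus (chromosome 11, 70267485 to 70279704) is shared with Zmynd15, a zinc finger gene known for its part in sperm development, which averaged 25.3 ± 8.85 FPKM in tamoxifen tumors and 27.1 ± 5.61 FPKM in vehicle tumors (limma adjusted p = 0.793).

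Cxcr6 had 21.8, 23.0, 11.1 and 15.2 FPKM in tamoxifen replicates 1 to 4, against 31.8, 27.8, 17.3 and 26.9 FPKM in vehicle replicates 1 to 4. The groups overlapped through vehicle replicate 3, which was below tamoxifen replicates 1 and 2. The means were 17.8 ± 5.65 FPKM in tamoxifen tumors and 25.9 ± 6.16 FPKM in vehicle tumors (log2 fold change -0.54). Per Cd3e, Cxcr6 was on average higher in tamoxifen tumors, with ratios of 2.69, 2.55, 1.31 and 1.91 in replicates 1 to 4, against 1.38, 1.61, 1.01 and 1.29 in vehicle replicates 1 to 4, and tamoxifen replicate 3 lay within the vehicle range. Against the mean of 12 T cell markers, its log2 level was 0.93 ± 0.52 in tamoxifen tumors and 0.59 ± 0.19 in vehicle tumors. By that measure the tamoxifen libraries, at 0.296 to 1.43, spanned the whole vehicle range of 0.327 to 0.755. The locus of Cxcr6 in the table spans 216515 bases (chromosome 9, 123544506 to 123761020) and is shared with the vesicle transport gene Fyco1, the ciliary transport gene Lztfl1 and 7 rows under 1 FPKM, so its level is less certain. Fyco1 averaged 13.0 ± 0.619 FPKM in tamoxifen tumors and 14.4 ± 1.99 FPKM in vehicle tumors (limma adjusted p = 0.553), and Lztfl1 11.3 ± 3.16 and 13.0 ± 1.03 FPKM (0.498).

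The 6 genes fall into an order of abundance that differed between the groups. FPKM are scaled per length, so levels can be set side by side. In tamoxifen tumors the means ran from Cxcl16 (85.4 FPKM) through Cxcl10 (62.9), Cxcl9 (41.2), Cxcr6 (17.8) and Cxcr3 (4.87) to Cxcl11 (3.62). In vehicle tumors they ran from Cxcl10 (548 FPKM) and Cxcl9 (499.7) through Cxcl16 (77.2), Cxcr6 (25.9) and Cxcl11 (23.7) to Cxcr3 (10.5). Among neighbours in these orders, the libraries of Cxcl16 and Cxcl10, of Cxcl10 and Cxcl9, and of Cxcr3 and Cxcl11 overlapped in tamoxifen tumors. In vehicle tumors those of Cxcl10 and Cxcl9, of Cxcr6 and Cxcl11, and of Cxcl11 and Cxcr3 overlapped.

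Of the signals known to induce the ligands, interferon gamma comes first. Its list holds the interferon, its receptor, kinases, transcription factors and feedback inhibitors of this pathway. Of its 11 tested members 1 fell, none rose and 10 did not pass, with 7 negative and 4 positive changes. The list median was -0.18 against 0.01 over all tested genes. Irf8 and Irf2, transcription factors of the interferon response, averaged 21.7 ± 6.00 and 18.5 ± 2.35 FPKM in tamoxifen tumors, against 41.8 ± 13.2 and 25.7 ± 3.24 FPKM in vehicle tumors, and did not pass (limma adjusted p = 0.0724 and 0.0856). The feedback inhibitor gene Socs3 and the kinase gene Jak2 had the opposite direction and did not pass either. Socs3 averaged 20.3 ± 6.52 FPKM in tamoxifen tumors and 10.1 ± 3.53 FPKM in vehicle tumors (limma adjusted p = 0.104). Jak2 averaged 19.6 ± 1.63 and 15.3 ± 2.34 FPKM (0.154). Both were chosen after their values were seen. Ifng itself had 0.206 to 0.971 FPKM in tamoxifen tumors and 0.552 to 1.32 FPKM in vehicle tumors, below the level needed for testing.

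Of 9 tested genes of the type I interferon input, 4 fell and 5 did not pass, and all 9 had a negative change (median -0.89). Irf9 and Stat2, parts of the complex that binds the ISRE, averaged 42.4 ± 5.17 and 38.2 ± 8.94 FPKM in tamoxifen tumors, against 78.8 ± 4.07 and 71.2 ± 7.25 FPKM in vehicle tumors (limma adjusted p = 0.00882 and 0.0247). Irf7, a factor of the type I response, averaged 161 ± 61.3 FPKM in tamoxifen tumors and 505 ± 54.3 FPKM in vehicle tumors (0.0134). The fourth gene that fell was Ifnar2, a receptor subunit. Ifnb1 was at most 0.153 FPKM in any library. Of 9 TNF and NF-kB input genes none passed in limma and 3 had an unadjusted p under 0.05, as did 3365 of all 15023 tested genes. The list median of -0.06 turned to 0.01 with libraries scaled to the same total. Nfkb2, an NF-kB subunit, averaged 10.8 ± 3.42 FPKM in tamoxifen tumors and 17.9 ± 2.83 FPKM in vehicle tumors (0.121). The other two, chosen after their values were seen, had the opposite direction: the NF-kB inhibitor gene Tnfaip3 averaged 12.9 ± 2.98 FPKM in tamoxifen tumors and 8.71 ± 0.994 FPKM in vehicle tumors (limma adjusted p = 0.128), and the cytokine gene Tnf 5.07 ± 2.19 and 2.81 ± 1.07 FPKM (0.218). Scaling to the same total ended the calls of Irf9 and Stat2 (limma adjusted p = 0.2 and 0.226). Stat2 was also lost without any 1 of 5 libraries, tamoxifen replicates 1 and 2 and vehicle replicates 2, 3 and 4 (0.0563, 0.0569, 0.0737, 0.0777 and 0.0762). A fit with replicate number as a block ended its call too (limma adjusted p = 0.0522).

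The cells that carry Cxcr3 and Cxcr6 are lymphocytes. Of 12 T cell markers 7 fell, none rose and 5 did not pass (median -0.90). Cd3e averaged 8.38 ± 0.475 FPKM in tamoxifen tumors and 19.5 ± 2.94 FPKM in vehicle tumors (limma adjusted p = 0.00653), and the kinase gene Lck 16.2 ± 3.17 and 37.0 ± 5.66 FPKM (0.0122). The mean log2 level of the markers was 3.16 to 3.31 in tamoxifen libraries and 3.86 to 4.32 in vehicle libraries (exact 2-sided permutation p = 0.0286, the least possible with 70 arrangements, or 0.0476 adjusted over 10 marker lists). None of these markers was listed at 0 in any library, and scaling to the same total ended the call of Lck (0.065). Their part in the level of Cxcr3 was not tested, beyond the ratios given above.

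Type 1 lymphocytes are the cells on which Cxcr3 is best known. Of 15 tested genes of their programme 7 fell, none rose and 8 did not pass (median -0.80). The granule gene Nkg7 averaged 18.8 ± 4.18 FPKM in tamoxifen tumors and 49.9 ± 6.36 FPKM in vehicle tumors (limma adjusted p = 0.0074), the pore-forming Prf1 0.947 ± 0.154 and 2.75 ± 0.106 FPKM (0.00952), and the interleukin 12 receptor chain Il12rb1 2.84 ± 0.883 and 9.23 ± 1.31 FPKM (0.00882). Of 6 tested NK cell markers 3 fell and 3 did not pass (median -0.73). Klrk1 and Eomes among these 3 are also among the 7 type 1 genes that fell, so the lists are not independent. Prf1, Eomes and Ncr1 averaged under 1 FPKM in tamoxifen tumors and reached the mean needed for testing only through vehicle tumors. That entry favoured a fall, so nothing is read from their part in these counts. At a mean of at least 5 FPKM, 1 NK cell marker fell. The receptors Klrk1 and Ncr1 averaged 3.28 ± 1.34 and 0.486 ± 0.180 FPKM in tamoxifen tumors, against 8.11 ± 0.937 and 1.77 ± 0.585 FPKM in vehicle tumors (0.0206 and 0.0438), and the T-box factor Eomes 0.524 ± 0.0319 and 1.66 ± 0.202 FPKM (0.0186). Ncr1 lost its call in all 6 fits that left out 1 library and still tested it (adjusted p of 0.0563 to 0.0908). Klrk1 lost it without tamoxifen replicate 2 or any 1 of the vehicle replicates (0.0526 to 0.0647), and Eomes without vehicle replicate 2 (0.0581). Scaling to the same total ended the calls of Prf1, Klrk1, Ncr1 and Eomes (0.0773, 0.0915, 0.119 and 0.154), and weighting libraries by quality that of Ncr1 (0.0529). The replicate block ended those of Prf1, Eomes and Ncr1 (limma adjusted p = 0.052, 0.0732 and 0.0866).

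Genes linked to resident and innate-like lymphocytes, which Cxcr6 marks, were listed as well. Of 11 tested 1 fell, none rose and 10 did not pass (median -0.30). This list includes genes that other cells express, such as Il15, Il15ra, Cd1d1 and Id2, so the count does not describe these lymphocytes alone. The integrin Itgae, which holds T cells in epithelium and is also made by some dendritic cells, averaged 3.86 ± 1.18 FPKM in tamoxifen tumors and 10.7 ± 2.41 FPKM in vehicle tumors (limma adjusted p = 0.0184). Zbtb16, the transcription factor of NKT cells, had 3.10, 5.11, 4.19 and 1.23 FPKM in tamoxifen tumors, against 0.352, 0.698, 1.83 and 0.644 FPKM in vehicle tumors (0.0874), the other way from Itgae. Cd69, a residence and activation marker, averaged 5.43 ± 1.80 and 8.24 ± 1.04 FPKM (0.134). Itgae lost its call without vehicle replicate 2 or 4 (0.059 and 0.0569), when scaled to the same total (0.058) and with the replicate block (0.0558). Cd69 passed without tamoxifen replicate 1 (0.0334) and Zbtb16 without tamoxifen replicate 4 (0.0299).

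Dendritic cells and macrophages are known sources of Cxcl9 and Cxcl10, and whether the 2 lists differ from each other was not tested. Of 9 tested dendritic cell markers 4 fell, none rose and 5 did not pass (median -1.05). Batf3, the transcription factor of cross-presenting dendritic cells, had 2.97, 3.74, 5.38 and 3.55 FPKM in tamoxifen tumors, against 13.5, 15.4, 14.0 and 20.2 FPKM in vehicle tumors (log2 fold change -1.78, SE 0.18, limma adjusted p = 0.00653). The surface receptors Clec9a and Xcr1 of the same cells fell as well. Clec9a averaged 1.99 ± 0.919 FPKM in tamoxifen tumors and 9.73 ± 2.78 FPKM in vehicle tumors (0.00998), and Xcr1 0.495 ± 0.156 and 2.55 ± 0.774 FPKM (0.0158). Cd209a, which also fell, averaged 0.152 FPKM in tamoxifen tumors and 1.88 FPKM in vehicle tumors. Xcr1 and Cd209a reached the mean needed for testing only through vehicle tumors, so nothing is read from their falls. At a mean of at least 5 FPKM, 2 dendritic cell markers fell. The mean log2 level of the list was 1.27 to 1.63 in tamoxifen libraries and 2.11 to 2.68 in vehicle libraries (exact 2-sided permutation p = 0.0286, 0.0476 adjusted over 10 lists). Of 12 macrophage markers none passed in limma and 3 had an unadjusted p under 0.05, as did 3365 of all 15023 tested genes. Changes were positive for 8 and negative for 4 (median 0.15). The mean log2 level of this list was 4.66 to 6.21 in tamoxifen libraries and 5.03 to 5.45 in vehicle libraries (exact 2-sided permutation p = 0.629). Mertk, an engulfment receptor, averaged 20.1 ± 9.37 FPKM in tamoxifen tumors and 7.98 ± 0.771 FPKM in vehicle tumors (0.0762) and passed without tamoxifen replicate 4 (0.0243) and with libraries weighted by quality (0.044). Cx3cr1, the fractalkine receptor, went the other way without overlap, with 6.01 to 19.3 FPKM in tamoxifen tumors and 21.8 to 38.9 FPKM in vehicle tumors, and did not pass either (limma adjusted p = 0.0955). It was chosen after its values were seen.

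The level of Cxcl9 relative to these lists also follows from how Cxcl9 was chosen and is given as a description. Its log2 level stood 3.97 ± 0.32 above the dendritic cell mean in tamoxifen tumors and 6.54 ± 0.31 above it in vehicle tumors. The same difference from the macrophage mean was 0.02 ± 0.77 in tamoxifen tumors and 3.78 ± 0.39 in vehicle tumors. The part of dendritic cells in the level of Cxcl9 was not tested. Xcr1 lost its call without vehicle replicate 2 and with the replicate block (limma adjusted p = 0.0541 and 0.0527).

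**Figure D4:**
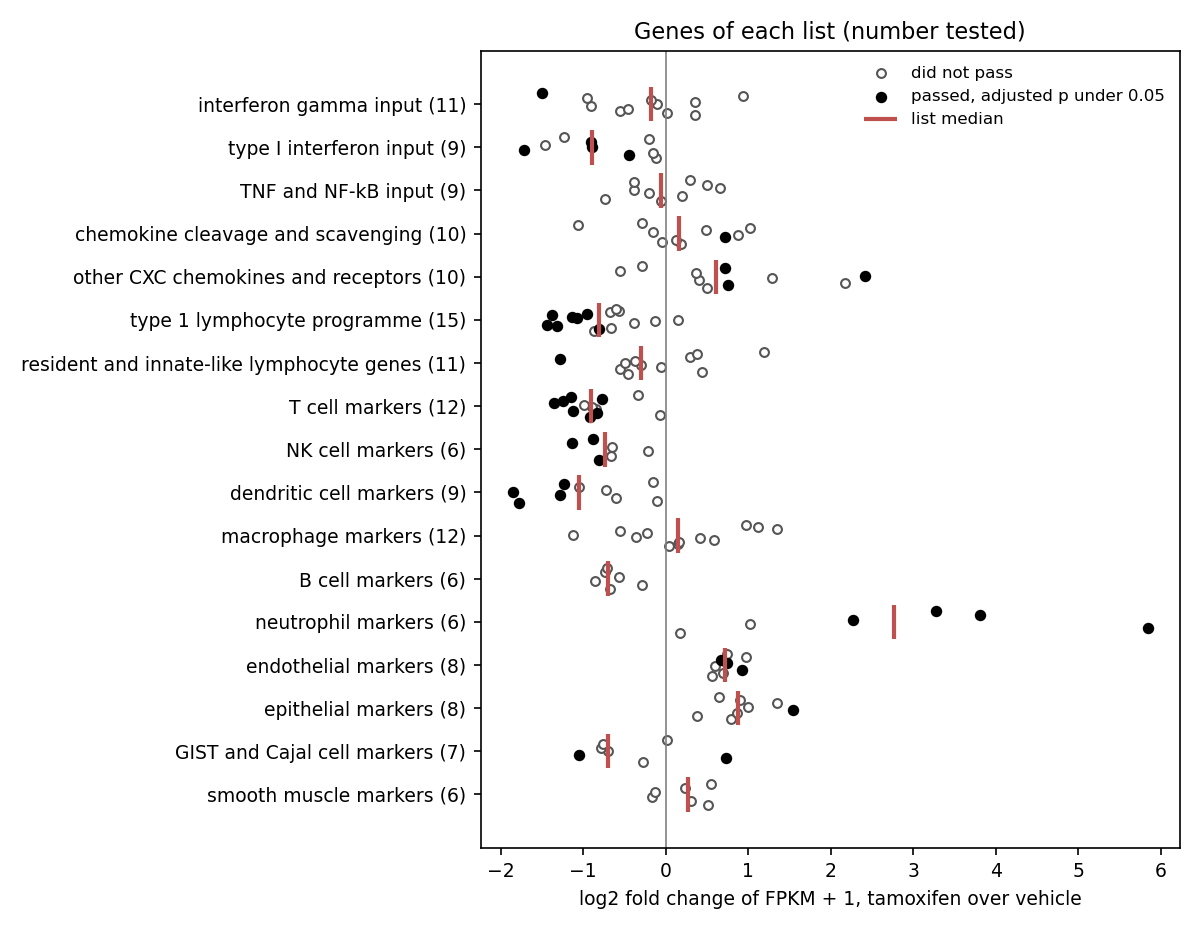
Log2 fold change of FPKM + 1, tamoxifen over vehicle, for every tested gene of 17 lists (number tested in brackets); filled points passed a limma adjusted p of 0.05, open points did not, and a bar marks the list median. T cell, type 1 lymphocyte and dendritic cell genes lie to the left (medians -0.90, -0.80 and -1.05), whereas other CXC genes lie to the right (median 0.61).

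Other members of the CXC family attract or hold other cells as well, such as neutrophils and B cells. Of 16 other CXC chemokines and receptors 10 were tested, of which 3 rose, none fell and 7 did not pass, with 8 positive and 2 negative changes (median 0.61). Cxcl5, a neutrophil-attracting chemokine, had 5.88, 14.8, 4.69 and 13.5 FPKM in tamoxifen tumors, against 1.93, 1.06, 0.492 and 0.241 FPKM in vehicle tumors (log2 fold change 2.41, SE 0.40, limma adjusted p = 0.0163). Cxcl12, which stromal cells make to retain Cxcr4-bearing cells, averaged 87.4 ± 5.74 FPKM in tamoxifen tumors and 51.9 ± 10.4 FPKM in vehicle tumors (0.026). Cxcr7, listed under that older name of the scavenging receptor Ackr3, averaged 5.85 ± 0.878 FPKM in tamoxifen tumors and 3.16 ± 0.394 FPKM in vehicle tumors (0.0224). Cxcl5 averaged 0.931 FPKM in vehicle tumors, so it reached the mean needed for testing only through tamoxifen tumors. It lost its call without vehicle replicates 3 and 4 (0.055 and 0.0512). Cxcl12 lost it without tamoxifen replicates 2 and 4 and vehicle replicates 1, 2 and 4 (0.0505 to 0.0799), and Cxcr7 without tamoxifen replicate 2 and vehicle replicates 1, 2 and 3 (0.0569 to 0.0696). Scaling to the same total ended the calls of Cxcl12 and Cxcr7 (0.224 and 0.213), and testing without a filter on low values that of Cxcr7 (0.0529). With the replicate block Cxcl5, Cxcl12 and Cxcr7 all lost their calls (limma adjusted p = 0.0525, 0.0704 and 0.0747).

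Of 10 tested genes listed for chemokine cleavage and scavenging, 1 rose (Cxcr7), none fell and 9 did not pass (median 0.16). That list also holds Pf4, itself a CXC chemokine gene, and is not limited to genes acting on Cxcl9, Cxcl10, Cxcl11 or Cxcl16. Dpp4, the protease that inactivates Cxcl9, Cxcl10 and Cxcl11 by trimming their ends, had 4.00 to 7.49 FPKM in tamoxifen tumors and 3.59 to 9.44 FPKM in vehicle tumors (limma adjusted p = 0.785). Adam10, which sheds Cxcl16, had 22.6 to 43.1 FPKM in tamoxifen tumors and 25.7 to 36.5 FPKM in vehicle tumors (0.64). These 2 genes were chosen after their values were seen. Darc, the decoy receptor Ackr1 of venules and red cells, averaged 6.53 ± 3.69 FPKM in tamoxifen tumors and 2.93 ± 1.32 FPKM in vehicle tumors (0.189), and the neutrophil collagenase Mmp8 1.86 ± 1.89 and 0.207 ± 0.0401 FPKM (0.176).

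Other cell markers also differed between the groups, and their part in the values of the 6 genes was not tested. Neutrophil markers rose for 4 of 6 tested genes and fell for none, with Ly6g at 147 ± 33.0 FPKM in tamoxifen tumors and 1.96 ± 1.79 FPKM in vehicle tumors (limma adjusted p = 0.00225). Endothelial markers rose for 3 of 8 (Emcn, Pecam1 and Tek) and epithelial markers for 1 of 8, the keratin Krt18. The mean log2 level of these 3 lists did not overlap between groups: 3.53 to 5.16 in tamoxifen and 1.02 to 2.14 in vehicle libraries for neutrophils, 3.07 to 3.61 and 2.48 to 2.88 for endothelium, and 6.28 to 7.63 and 5.39 to 6.07 for epithelium (exact 2-sided permutation p = 0.0286, 0.0476 adjusted, each). Of 7 GIST and Cajal cell markers Edn3 fell and Cd34 rose, and Kit averaged 447 ± 82.1 FPKM in tamoxifen tumors and 759.7 ± 161 FPKM in vehicle tumors (0.0674). None of 6 B cell and 6 smooth muscle markers passed in limma. An unadjusted p under 0.05 was seen for 0 and 2 of them, and for 3365 of all 15023 tested genes. The calls of Tek, Pecam1, Emcn, Krt18, Edn3 and Cd34 were each lost without at least 2 single libraries (adjusted p of up to 0.131, 0.102, 0.0586, 0.109, 0.0903 and 0.0724), and scaling to the same total also ended those of Tek, Pecam1, Emcn, Edn3 and Cd34 (0.229, 0.168, 0.0957, 0.257 and 0.166). Without a filter on low values Tek, Pecam1, Krt18 and Edn3 lost theirs (0.0891, 0.0507, 0.0666 and 0.0545). The replicate block ended those of Tek, Pecam1, Emcn, Edn3 and Cd34 (limma adjusted p = 0.0935, 0.0774, 0.0624, 0.0664 and 0.06). Kit passed without tamoxifen replicate 3 or vehicle replicate 1 (0.049 and 0.0466).

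Among 12498 genes, the profiles most like each of the 6 were found by the root mean square difference of centred log2 levels over the 8 libraries, a description that includes the difference between the groups. For Cxcl9, whose own spread about its mean was 1.79, the nearest were the serotonin receptor gene Htr5b (0.41), the interferon-induced GTPase gene Gbp10 (0.51) and the beta globin gene Hbb-b1 (0.60). Cxcl10 (own spread 1.61) was nearest to Apol6 (0.48), the class II antigen gene H2-Eb2 (0.52) and Gbp10 (0.57). Cxcl11 (1.27) was nearest to the interferon-induced GTPase gene Gbp4 (0.32), H2-Eb2 (0.32) and Apol6 (0.34), so the neighbours of Cxcl10 and Cxcl11 overlapped. Gbp10 averaged 1.34 ± 0.456 FPKM in tamoxifen tumors and 13.2 ± 3.51 FPKM in vehicle tumors.

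Cxcr3 (0.51) was nearest to the histone gene Hist1h2bc, to Apol7e and to the T cell receptor chain gene Cd3d (each 0.15). Cxcr6 (0.45) was nearest to Evi2b (0.12), the chemokine Ccl4 (0.15) and the lymphocyte receptor gene Ly9 (0.17). Cxcl16 varied little (0.20), and its neighbours were the ferritin chain gene Fth1, Arhgap31 and Eif4a-ps4 (each 0.11), so small differences decided which genes came nearest. These genes and Cxcl16 were each highest in tamoxifen replicate 2. Between the 6 genes themselves, Cxcr3 and Cxcr6 differed by 0.39 and Cxcl10 and Cxcl11 by 0.41. Cxcl9 differed by 0.74 and 0.79 from Cxcl10 and Cxcl11, by 1.31 from Cxcr3 and by 1.87 from Cxcl16.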

How the data were processed

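RNA of 8 cecal tumors, 4 tamoxifen and 4 vehicle, was sequenced. Per the submitters' processing notes, STAR 2.3, Cufflinks and Cuffdiff were used with the mm9 build; strand, annotation and replicate handling are not stated there. The authors deposited gene-level FPKM with confidence bounds, in 37980 rows of 34586 symbols. Rows of one symbol were summed, and 178 values with a failed status were treated as missing (none in the 6 genes).

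Tests ran on log2(FPKM + 1) with limma 3.58.1 in R 4.3.3 (empirical Bayes with a trend, 2-sided, Benjamini-Hochberg over 15023 genes with a mean of at least 1 FPKM and 2 estimates per group; threshold 0.05), and were checked on simulated data. Fold changes on this scale understate changes of low genes. Genes with a mean under 1 FPKM in 1 group met the filter only through the other group, which favoured the direction of their change. Summed levels of 10 marker lists were tested by exact permutation.

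The 6 genes and the 17 lists were chosen with earlier results of these data known. Named genes were the 6, Etv1, tested genes sharing a locus with them, the 3 nearest profiles of each, and from each list up to 3 genes with the smallest p, or 1 where none passed. Some genes that this rule names are not reported here. Genes with clone names and receptor segments were left out of profiles. Calls lost or gained under alternatives are given beside genes named by this rule whose calls are reported, and otherwise only as counts in the closing section. Promoters came from RefSeq (GRCm38.p6); coordinates of 2 builds were not mixed.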

Additional observations from a re-analysis of the deposited data

Results flagged for a closer look

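Among 156 groups of 4 libraries checked, 12 held 1 library far from the other 3, and chance flags about 1 in 20 groups. None was in the 6 chemokine and receptor genes. In tamoxifen tumors, replicate 1 was high in Cxcr7 (7.15 FPKM, others 5.30 to 5.60) and in Klrk1 (5.29, others 2.48 to 2.68). Tamoxifen replicate 2 was high in Fth1 (2045 FPKM, others 1481 to 1548) and low in H2-Eb2 (0.888, others 2.44 to 2.66). Tamoxifen replicate 3 was low in Ly6g (97.9 FPKM, others 158 to 170). Tamoxifen replicate 4 was high in Krt18 (147 FPKM, others 53.7 to 61.3), Krt19 (738, others 333 to 381) and Xcr1 (0.729, others 0.408 to 0.424).

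In vehicle tumors, replicate 2 was high in Emcn (13.2 FPKM, others 11.3 to 11.5) and replicate 4 in Tek (3.21, others 2.35 to 2.48). Vehicle replicate 3 was low in Ccl4 (3.25 FPKM, others 7.73 to 8.27) and Krt19 (156, others 226 to 238).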

How the results depend on the processing

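The 6 genes moved by less than 1 within-group SD in 108 of 108 values under 18 alternatives. That outcome was largely fixed in advance, so nothing is read from the count. Leaving out 1 of 4 libraries cannot move a group difference by 1 such SD. Settings such as the filters and the replicate block leave these fold changes as they are. Leaving out 1 library gave log2 fold changes of -3.70 to -3.43 for Cxcl9, -3.23 to -2.41 for Cxcl10, -2.58 to -1.99 for Cxcl11, -1.07 to -0.86 for Cxcr3, 0.01 to 0.22 for Cxcl16 and -0.72 to -0.35 for Cxcr6. Of 38 called named genes, 20 kept their call without each library and 14 under all alternatives run. Scaling to the same total ended 21 of the calls and the replicate block 19. The cause of the losses was not tested.

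Genes lower over all genes (461) became 75 with scaling to the same total and 139 with a replicate block, and 160 to 436 without 1 library. Genes higher (358) became 207 at a mean of at least 5 FPKM, 154 with the same total and 113 with the block, and 103 to 420 without 1 library. The labels do not say whether replicate numbers pair the samples. Deviations from the group mean had correlations of -0.16 to 0.14 for same-numbered samples and -0.15 to 0.15 for different-numbered ones. With so few samples these correlations cannot decide whether there was a pairing.

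With the same total, calls became 0 for interferon gamma, 1 for type I interferon, 0 for cleavage, 1 for other CXC, 2 for type 1 lymphocyte, 0 for resident, 1 for T cell, 0 for NK, 0 for endothelial, 0 lower and 0 higher for GIST markers. With the replicate block they became 2 for type I interferon, 0 for cleavage, 0 for other CXC, 4 for type 1 lymphocyte, 0 for resident, 3 for T cell, 1 for NK, 2 for dendritic, 0 for endothelial, 0 lower and 0 higher for GIST markers. Without a filter they became 0 for cleavage, 1 for endothelial, 0 for epithelial and 0 lower for GIST markers. At 5 FPKM they became 0 for cleavage, 1 for NK and 2 for dendritic, and with quality weights 2 lower for GIST markers. The summed NK level missed its threshold at 5 FPKM (-0.81) and with the same total (-0.68), and the GIST level passed with median ratio scaling (-0.40).

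Without 1 library, calls ranged over 1 to 1 for interferon gamma, 2 to 4 for type I interferon, 0 to 1 for cleavage, 1 to 3 for other CXC, 4 to 8 for type 1 lymphocyte, 0 to 2 for resident, 4 to 8 for T cell, 0 to 3 for NK, 2 to 5 for dendritic, 3 to 4 for neutrophil, 0 to 5 for endothelial and 0 to 3 for epithelial genes, and 0 to 2 lower and 0 to 1 higher for GIST markers. Summed levels, as log2 differences, ranged over -0.96 to -0.81 for T cell, -0.84 to -0.64 for NK, -1.04 to -0.85 for dendritic, -0.07 to 0.45 for macrophage, -1.22 to -0.16 for B cell, 2.55 to 2.99 for neutrophil, 0.67 to 0.86 for endothelial, 0.65 to 1.10 for epithelial, -0.47 to -0.32 for GIST and 0.05 to 0.38 for smooth muscle markers. Read counts were not used, so depth sets no stated limit on single values.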

Other observations

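Genes named in this section were chosen after their values were seen. Vehicle replicate 4, the tumor with the highest Cxcl10, was also highest in Irf1, a transcription factor induced by interferon gamma, and in its feedback inhibitor Socs1. Irf1 had 62.7, 58.1, 73.2 and 98.3 FPKM in tamoxifen replicates 1 to 4, against 86.5, 85.7, 73.4 and 225 FPKM in vehicle replicates 1 to 4 (limma adjusted p = 0.395). Socs1 had 4.41, 3.88, 6.66 and 8.56 FPKM in tamoxifen replicates, against 8.29, 8.61, 7.03 and 36.4 FPKM in vehicle replicates (0.291). For both, the other 3 vehicle tumors lay close together.

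Cxcl13, a chemokine that draws B cells, had the opposite direction to the Cxcr3 ligands, with 19.1, 93.1, 38.6 and 38.0 FPKM in tamoxifen replicates 1 to 4, against 9.10, 2.37, 9.06 and 19.4 FPKM in vehicle replicates 1 to 4. It did not pass (limma adjusted p = 0.074), and tamoxifen replicate 1 lay just below vehicle replicate 4.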
